A study of Homo sapiens with 12 samples.

Results

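Keratin genes were described in T-47D, a human luminal breast cancer line that carries the oestrogen receptor, after exposure to palbociclib. This drug blocks CDK4 and CDK6, the kinases that drive entry into S phase. The 9 genes named were KRT7, KRT8, KRT10, KRT15, KRT18, KRT19, KRT80, KRT81 and KRT86. They were taken by symbol from a table of 19460 genes, in which 8 of the 9 were matched, and KRT81 is not analysed here. All cells were labelled wild type T-47D, and the groups differed in receiving 1 µM palbociclib or the solvent DMSO for 24 h. Poly(A) RNA sequencing and ATAC-seq, which reads how open chromatin is to the transposase Tn5, each covered 3 libraries per treatment. ATAC-seq cultures were grown in separate dishes. The RNA labels number the replicates without naming separate cultures, so RNA p-values measure only the spread between these libraries, which may be technical. A single line was used, so nothing here covers variation between tumours or lines. The genes were chosen from the RNA contrast between the treatments, so their RNA changes are a description, and the calls of the fit over all genes are no evidence for them. The accessibility of the same loci, from other libraries, did not enter that choice and was tested. Splicing was tested too, but on reads of the same RNA libraries, so it is not a separate reading.

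Keratins build the intermediate filaments of epithelial cells. Each filament is made of obligate pairs of an acidic type I keratin and a basic or neutral type II keratin, and a keratin without a partner is unstable. The human type II genes lie in a cluster on chromosome 12, which also holds the type I gene KRT18, and the other type I genes lie on chromosome 17. KRT8 and KRT18 are the founding pair of simple epithelia, and luminal breast cells add KRT19 and KRT7, which pathologists use to mark glandular carcinomas. KRT15 is a type I keratin of basal cells and hair follicle stem cells, and KRT10 is a type I keratin of differentiating epidermis. KRT80 is a type II keratin of many epithelia, and KRT86 is a type II keratin of the hair cortex.

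RefSeq places the genes on GRCh38 as follows. KRT80 spans chr12:52168996-52192014 on the minus strand, KRT7 spans chr12:52233243-52255853 on the plus strand, and KRT86 spans chr12:52274645-52309163 on the plus strand, enclosing KRT81. KRT8 spans chr12:52897191-52949860 on the minus strand, and its far end overlaps KRT18 at chr12:52948855-52952906 on the plus strand. On chromosome 17, all on the minus strand, KRT10 spans chr17:40818117-40822614, KRT15 spans chr17:41513745-41518890, and KRT19 spans chr17:41523617-41528308. Whether reads were counted by strand is not given in the sources used here, so reads in the stretch shared by KRT8 and KRT18 cannot be told apart.

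The RefSeq promoter table of GRCh38.p14 matched 2 of the 8 genes, KRT8 and KRT10. The 250 bases before each listed start are shown because they differ in the features that the other data touch: the KRT8 start lay inside an ATAC-seq peak, and KRT10 had no peak within 10 kb. Capitals mark matches, on either strand, to TATAAA (the core of a TATA box), TGANTCA (AP-1), GGGCGG (the Sp1 GC box) or TTTNNCGC (an E2F-type site).
KRT8 chr12:52926470-52926719 (minus strand): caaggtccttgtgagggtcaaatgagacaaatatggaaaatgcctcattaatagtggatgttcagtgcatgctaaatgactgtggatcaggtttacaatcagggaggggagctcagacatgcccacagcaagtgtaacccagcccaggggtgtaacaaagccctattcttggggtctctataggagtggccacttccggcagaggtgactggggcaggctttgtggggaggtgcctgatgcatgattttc
KRT10 chr17:40822615-40822864 (minus strand): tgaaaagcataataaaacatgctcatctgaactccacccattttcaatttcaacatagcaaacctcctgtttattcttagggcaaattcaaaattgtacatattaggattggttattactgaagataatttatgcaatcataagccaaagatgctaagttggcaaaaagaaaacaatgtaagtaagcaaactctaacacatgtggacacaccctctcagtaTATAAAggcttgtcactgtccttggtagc

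The KRT10 stretch held 1 match, TATAAA, which began 29 bases before the start, and 11.4% of 27305 promoters of the same length held that motif on either strand. The KRT8 stretch held none of the 4 motifs. TGANTCA was found in 6.84% of the promoters, GGGCGG in 41.3% and TTTNNCGC in 5.80%. The GC content was 50.4% before KRT8 and 34.8% before KRT10. These are matches of letters and say nothing of binding.

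RNA levels were read as FPKM, which are scaled for transcript length, so levels of different genes can be set side by side. In the DMSO libraries the order was KRT19, KRT8, KRT18, KRT7, KRT15, KRT80, KRT10 and KRT86, and no 2 neighbours in it had overlapping ranges. The palbociclib libraries had the same order. KRT19, KRT8 and KRT18 ranked 23, 32 and 71 of 19460 genes by mean DMSO FPKM, and they made up 97.2% ± 0.0832 (SD, n = 3) of the summed FPKM of the 8 genes. At the other end, KRT86 ranked 14421.

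The label of an epithelial line was checked against markers. All 11 luminal epithelial markers were present, summing to 2003 to 2095 FPKM in DMSO and 2427 to 2619 FPKM with palbociclib, and 10 of them rose by limma, where 20.9% of all genes tested were called higher. Of 11 basal or myoepithelial markers 4 had a row, summing to between 9.04 and 10.1 FPKM in all 6 libraries, nearly all from ACTA2. TP63 stayed near 0 (means of 0.0731 and 0.0813 FPKM), and KRT5, KRT14 and KRT17 had no row. Fibroblast markers summed to 23.9 to 27.1 FPKM, nearly all from COL1A1, no endothelial marker had a row, and the leukocyte marker CD68 was at or below 0.173 FPKM.

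All but one of the keratins were more abundant with palbociclib, by 1.38 to 1.73 times for 6 genes and by 4.74 times for KRT86, while KRT10 differed little. By limma on log2(FPKM + 1), 7 of the 8 passed an adjusted p under 0.05 as higher and 0 as lower, where 20.9% of 15869 genes tested were called higher and 22.9% lower. The groups did not overlap for the same 7, all higher with palbociclib, against 26.5% of all genes tested that were apart in that direction. Nothing is read from these counts, because this contrast chose the genes. The median log2 change of the 8 was 0.57, against 0.00 over all genes. In a bulk culture, more cells of a type and more RNA per cell cannot be told apart. 

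**Figure D1:**
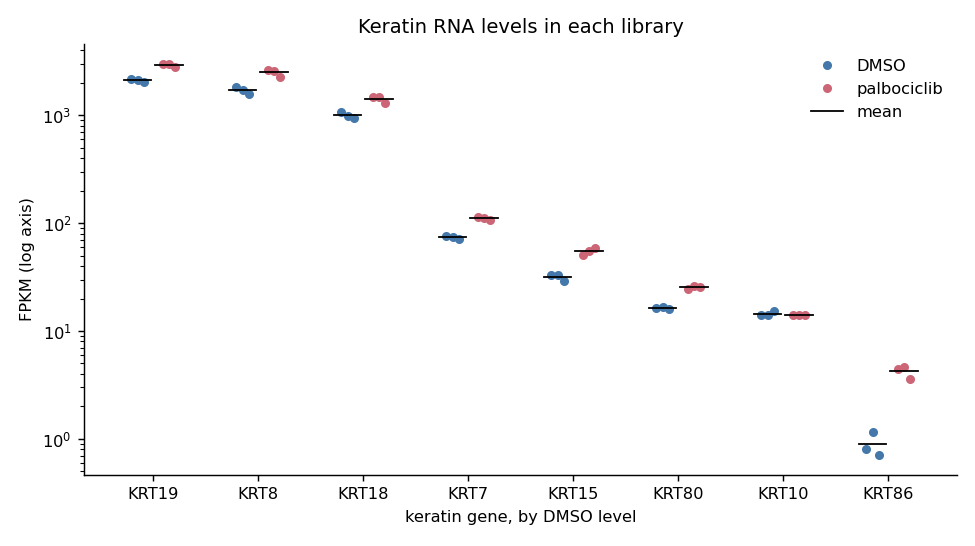
FPKM of the 8 keratin genes on a log axis, 1 point per library, with DMSO in blue, palbociclib in red and the mean of 3 libraries as a line. The groups are apart for every gene but KRT10, and the levels run from 2034 FPKM and above for KRT19 to 4.63 FPKM and below for KRT86.

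The simple epithelial pair carried much of the difference. KRT8 (ENSG00000170421) stood at 1822, 1697 and 1575 FPKM in DMSO replicates 1 to 3 and at 2644, 2562 and 2268 FPKM with palbociclib. The lowest treated library lay above the highest control, and the log2 change was 0.55 ± 0.07 (SE). KRT18 (ENSG00000111057), its type I partner, had 1062, 987 and 939 FPKM in DMSO and 1479, 1468 and 1293 FPKM with palbociclib, a log2 change of 0.50 ± 0.06 (SE). Replicate 3 was the lowest library of its treatment for both partners.

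KRT19 (ENSG00000171345), the smallest keratin and one without the usual tail domain, was the most abundant. It had 2178, 2127 and 2034 FPKM in DMSO and 2967, 3008 and 2774 FPKM with palbociclib, with a log2 change of 0.46 ± 0.04 (SE). The sizes for the most abundant keratins depended on scaling. Quantile normalization, which gives every library the same set of values, left a log2 change of 0.17 for KRT19 and 0.35 for KRT8, still higher with palbociclib.

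Summed over the 8 genes, keratin RNA stood at 5201, 4950 and 4681 FPKM in DMSO and at 7298, 7249 and 6543 FPKM with palbociclib. As a share of all FPKM this was 0.688% ± 0.0466 (SD, n = 3) against 0.926% ± 0.0455, and the groups did not overlap. The balance of the partners moved far less than their amount. The ratio of KRT8 to KRT18 was 1.72, 1.72 and 1.68 in DMSO and 1.79, 1.75 and 1.75 with palbociclib. Its mean was 1.03 times as high with palbociclib, and the groups did not overlap. The ratio of type II to type I keratins was 0.566 ± 0.0156 (SD, n = 3) in DMSO and 0.598 ± 0.0189 with palbociclib, and here the groups overlapped.

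**Figure D2:**
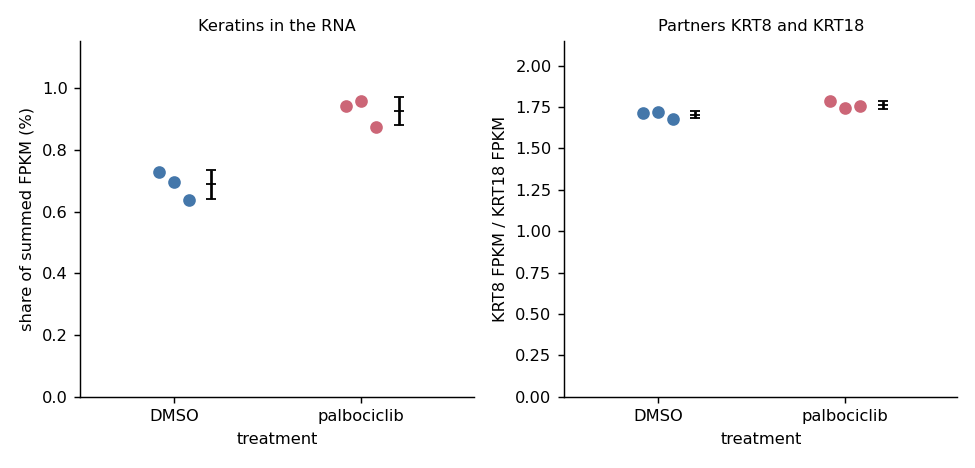
Share of the 8 keratin genes in all FPKM, in percent (left), and the ratio of KRT8 to KRT18 FPKM (right), 1 point per library with the mean and SD of 3 libraries beside them. The share differs between 0.688% and 0.926% on average. The ratio lies between 1.68 and 1.79 and is higher in every palbociclib library than in any DMSO library.

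KRT7 (ENSG00000135480), a type II keratin of glandular ducts, had 75.3, 74.3 and 71.6 FPKM in DMSO and 115, 112 and 106 FPKM with palbociclib. Its log2 change was 0.58 ± 0.04 (SE), and the spread within each group was small beside it. KRT7-AS, an antisense RNA annotated over KRT7, had a mean of 0.391 FPKM in DMSO and 0.604 FPKM with palbociclib, and its mean over the libraries was under the 0.5 FPKM needed for the test. Without strand, its reads cannot be told apart from those of KRT7.

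KRT15 (ENSG00000171346) had the largest log2 change among the keratins above 1 FPKM in every library. It stood at 33.2, 33.0 and 29.3 FPKM in DMSO and at 50.6, 55.4 and 58.9 FPKM with palbociclib, a log2 change of 0.77 ± 0.07 (SE). KRT80 (ENSG00000167767) had 16.3, 16.7 and 16.0 FPKM in DMSO and 24.5, 26.0 and 25.5 FPKM with palbociclib, a log2 change of 0.61 ± 0.04 (SE).

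KRT10 (ENSG00000186395) stood apart from the rest. It had 14.0, 14.1 and 15.3 FPKM in DMSO and 14.2, 13.9 and 14.1 FPKM with palbociclib. The groups overlapped, and the log2 change of -0.04 ± 0.05 (SE) turned to 0.06 under quantile normalization and under median centring. KRT10-AS1, an antisense gene whose RefSeq interval overlaps KRT10 and which was picked out after its values were seen, was the more abundant of the pair. It rose from 33.8 ± 2.92 to 40.2 ± 2.84 FPKM (SD, n = 3; log2 0.24, limma adjusted p 0.0238). Without DMSO replicate 2 the adjusted p was 0.0627, without palbociclib replicate 1 it was 0.0818, and without palbociclib replicate 2 it was 0.0733. Reads in the stretch that KRT10 and KRT10-AS1 share cannot be told apart without strand.

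KRT86 (ENSG00000170442), the hair keratin, showed the largest relative difference from the lowest level. It had 0.813, 1.15 and 0.706 FPKM in DMSO and 4.43, 4.63 and 3.61 FPKM with palbociclib. The 3 treated libraries lay well above all 3 controls. The log2 change was 1.47 ± 0.11 (SE) with a pseudocount of 1 FPKM and 2.14 with 0.1 FPKM, and it was 2.23 ± 0.21 (SE) in the authors' deposited table, because the pseudocount shrinks changes of low genes. KRT86, KRT81 and KRT83 are close paralogs of near-identical sequence, and how the authors divided reads among them is not given in the sources used here, so the assignment to KRT86 is uncertain. KRT83 itself was listed at a mean of 0.0894 FPKM in DMSO and 0.0858 FPKM with palbociclib.

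Genes with the most similar pattern were sought for the 3 keratins with the largest changes, as the smallest Euclidean distance over the 6 libraries of log2(FPKM + 1) minus its DMSO mean, among 12934 genes with a symbol and a mean of at least 1 FPKM. For KRT86 they were LURAP1L-AS1 (distance 0.41) and TMEM265 (0.45). For KRT15 they were CFAP157 (0.08) and ABCC12 (0.13), and for KRT80 they were SLC49A3 (0.06) and ETNK2 (0.10). SLC49A3 went from 16.5 ± 0.466 to 25.7 ± 0.661 FPKM (SD, n = 3) and so also shared the level of KRT80. All 6 libraries enter both the choice and the distance.

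Few other keratins were present. Of 45 further keratin genes 6 had a row, and 2 of these were high enough to test. KRT23, a type I keratin of simple epithelia, rose from 41.1 ± 1.65 to 48.7 ± 2.28 FPKM (SD, n = 3; log2 0.24, limma adjusted p 0.00326). KRT13, a type I keratin of mucosal epithelium, was at 0.541 ± 0.00884 and 0.913 ± 0.176 FPKM (log2 0.31, limma adjusted p 0.0247). For KRT13 the adjusted p was 0.0597, 0.0611 and 0.0538 without DMSO replicates 1, 2 and 3, and 0.0754 without palbociclib replicate 3. KRT33A, KRT24 and KRT4 had means below 0.310 FPKM in both groups. Of 8 rows named as pseudogenes of KRT8 or KRT18, which can share reads with them, the highest mean was 0.533 FPKM, for KRT8P39 in DMSO.

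Of 37 genes whose products bind or anchor keratin filaments 32 had a row and 31 were tested, and by limma 8 rose, 6 fell and 17 did not pass, with a median log2 change of 0.04. Over all genes tested 20.9% were called higher and 22.9% lower, so these counts lay near the background. Median centring, which adds 0.10 to every log2 change, gave 17 higher and 3 lower, and quantile normalization gave 15 and 3. Over all genes the share of calls that were higher went from 47.7% to 68.9% under median centring and to 61.6% under quantile normalization. Of 15869 genes tested, 5468 were then higher under median centring and 4588 under quantile normalization. Without palbociclib replicate 2 the number of anchoring genes called lower was 3.

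The 3 largest rises among them were JUP, HSPB1 and EVPLL. JUP, plakoglobin, which links desmosomal cadherins to the filament anchor, went from 296 ± 7.36 to 397 ± 13.4 FPKM (SD, n = 3; log2 0.42, limma adjusted p 2.90e-05). HSPB1, a small heat shock protein that binds filaments, went from 2296 ± 218 to 2988 ± 244 FPKM (log2 0.38, limma adjusted p 0.00518), but under quantile normalization its log2 change was 0.09 with an adjusted p of 0.329. EVPLL, an envoplakin-like gene, had 3.70 ± 0.186 and 5.00 ± 0.412 FPKM (log2 0.35, limma adjusted p 0.00438). The plakin cross-linker PLEC rose by 0.34 on the log2 scale, whereas DSP, the desmosomal plakin, stood at 64.2 FPKM in DMSO and 60.5 FPKM with palbociclib and did not pass.

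SFN, FBF1 and TCHP had the 3 largest falls. SFN, the 14-3-3 sigma protein that binds KRT18 and is also a p53 target, went from 53.2 ± 0.958 to 30.6 ± 0.515 FPKM (SD, n = 3; log2 -0.78, limma adjusted p 3.78e-07). FBF1, a keratin-binding protein of junctions and of the ciliary base, went from 19.1 ± 2.38 to 11.8 ± 0.450 FPKM (log2 -0.65, limma adjusted p 0.000315). TCHP, trichoplein, which binds KRT8 and KRT18 and also sits at centrioles, went from 11.0 ± 1.15 to 7.78 ± 0.463 FPKM (log2 -0.45, limma adjusted p 0.00166).

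Genes of other intermediate filaments were low. Of 13 genes 7 had a row and 5 were tested, with 1 higher, 3 lower and a median log2 change of -0.29, beside 20.9% higher and 22.9% lower over all genes tested. BFSP2, a filament protein of the eye lens, went from 5.87 ± 0.575 to 3.69 ± 0.698 FPKM (SD, n = 3; log2 -0.56, limma adjusted p 0.00467). The other falls were PRPH (log2 -0.37, limma adjusted p 0.0162) and BFSP1 (log2 -0.29, limma adjusted p 0.0287). PRPH lost its call when DMSO replicate 2, DMSO replicate 3 or palbociclib replicate 2 was left out, with adjusted p values of 0.0543, 0.0541 and 0.0585. BFSP1 lost it without DMSO replicate 3 (0.0768), palbociclib replicate 1 (0.0631) or palbociclib replicate 3 (0.0842), and under both scalings (0.106 with median centring, 0.0554 with quantile normalization). Without DMSO replicate 3 the list had 1 gene called lower. SYNC, which encodes syncoilin, rose (log2 0.34, limma adjusted p 0.0127). Vimentin, the mesenchymal filament protein VIM, had means of 1.58 and 1.92 FPKM and did not pass.

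The keratinocyte cornification and hair cortex genes held 18 tested members of 21 with a row, and 6 rose by limma, 0 fell and 12 did not pass, with a median log2 change of 0.11, where 20.9% of all genes tested were called higher and 22.9% lower. Median centring and quantile normalization each gave 10 higher. Over all 15869 genes tested these scalings gave 5468 and 4588 higher, against 3312 without them. ELF3, an epithelial transcription factor that is also 1 of the 11 luminal markers, went from 45.7 ± 2.34 to 80.0 ± 4.63 FPKM (SD, n = 3; log2 0.79, limma adjusted p 6.81e-06). IVL, involucrin, a protein of the cornified envelope, went from 3.00 ± 0.254 to 5.51 ± 0.181 FPKM (log2 0.71, limma adjusted p 7.21e-05). KRTAP5-AS1, an antisense RNA listed under the hair keratin-associated proteins by its symbol, rose too (log2 0.42, limma adjusted p 0.00504). Of factors known for hair keratin control, HOXC13 (17.4 and 18.4 FPKM) and DLX3 (8.81 and 11.4 FPKM) did not pass, and FOXN1 (0.428 and 0.475 FPKM) was too low to be tested. The 11 luminal markers had a median log2 change of 0.25. Among them MUC1, a mucin of the apical surface, went from 647 to 903 FPKM (log2 0.48). EPCAM went the other way, from 196 to 177 FPKM, and did not pass (log2 -0.14, limma adjusted p 0.0544).

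**Figure D3:**
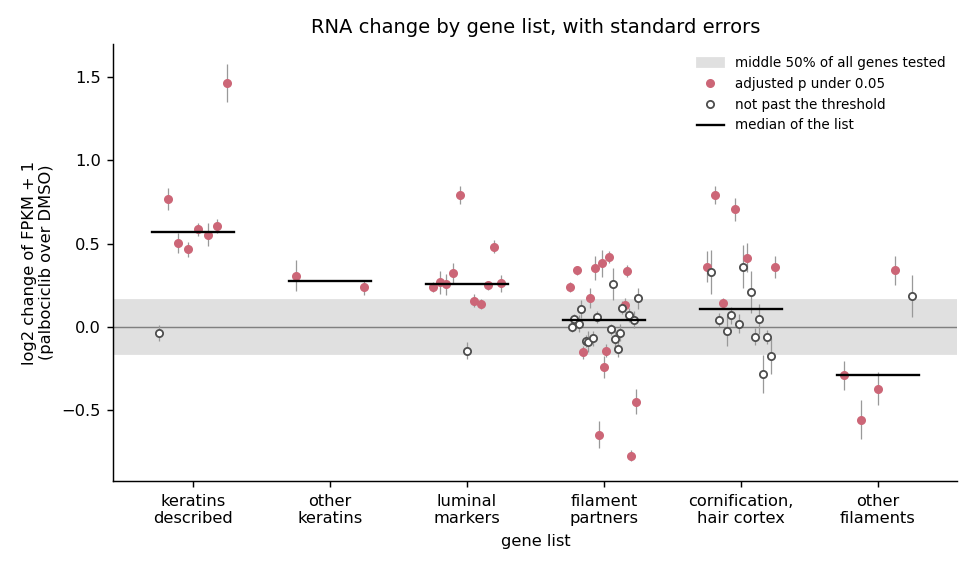
Log2 change of FPKM + 1 (palbociclib over DMSO) for each tested gene of 6 lists, with its standard error. Filled points had a limma adjusted p under 0.05, black lines are list medians and the grey band holds the middle 50% of all 15869 genes. The keratin median is 0.57, while the partner genes spread to both sides of a median of 0.04.

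Chromatin accessibility, from ATAC-seq libraries other than the RNA ones, gave a separate reading of the same loci. Of the 38121 peaks, 5.41% were higher and 6.46% lower with palbociclib by the edgeR quasi-likelihood test at an adjusted p under 0.05, from 12830062 to 18250496 reads counted in peaks per library. In the 8 genes extended by 10 kb on each side lay 19 peaks, of which 0 were higher and 2 were lower. Their median log2 change was 0.05. No peak near a keratin gene with more RNA was called more open in this test. Scaling by library totals, or leaving out palbociclib replicate 3, gave 1 higher peak, which lay near KRT15. Neighbouring genes share peaks, so the 19 are not independent.

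The peak with the largest fall lay in KRT80, at chr12:52175828-52176389. In CPM, reads per 1000000 reads in peaks with TMM scaling, it had 23.9, 22.3 and 21.8 in DMSO and 15.4, 15.5 and 16.4 with palbociclib, so the groups were well apart. The log2 change was -0.52 (edgeR adjusted p 0.000104), and it lay between -0.55 and -0.49 when any 1 library was left out. KRT80 RNA was higher in the same contrast. The peak lies inside the gene, 15625 bases from its RefSeq start. The other 3 KRT80 peaks did not pass, and among them the one nearest the start, at chr12:52185854-52186638 and 5376 bases from it, had 9.33 ± 1.23 CPM in DMSO and 11.7 ± 0.770 CPM with palbociclib (SD, n = 3; log2 0.31, edgeR adjusted p 0.114).

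KRT8 held the other called peak, at chr12:52907050-52908062. It had 71.6, 69.5 and 78.3 CPM in DMSO and 67.7, 66.0 and 57.2 CPM with palbociclib, and the log2 change was -0.20 (adjusted p 0.0265 by edgeR). The groups were apart by less than 2 CPM. The adjusted p was 0.0889 with the DESeq2 Wald test, 0.206 without DMSO replicate 3 and 0.191 without palbociclib replicate 3, so the call rested on those libraries and on the tool.

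The splicing tables also bore on the start of KRT8. RefSeq lists a start at base 52926469, inside the peak at chr12:52925812-52926704, whose level was 70.3 ± 2.82 CPM in DMSO and 75.8 ± 6.50 CPM with palbociclib (SD, n = 3; log2 0.11, edgeR adjusted p 0.253). The promoter printed above belongs to this start. In the splicing tables, the exon at chr12:52926412-52926469 was joined to the shorter form of the next exon by 0 to 4 reads per library and to its longer form by 0 to 2. In contrast, 2126 to 4962 reads per library crossed from the coding exon at chr12:52904658-52905027 into its extension to base 52905079. The peak over that extended exon, at chr12:52904507-52905514, had 182 ± 8.42 CPM in DMSO and 182 ± 7.33 CPM with palbociclib (log2 0.00, edgeR adjusted p 0.993), a mean level above that of 99.2% of all peaks. Accessibility at this exon differed by less than the spread between replicates, while KRT8 RNA was 1.47 times as high.

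The keratin genes lacked peaks at the RefSeq ends taken as their starts, which need not be the starts used in these cells. The other listed KRT8 start lay inside a peak, and the splicing tables list exons of KRT86 and KRT15 beyond their RefSeq intervals. Of 11553 genes with a mean of at least 0.5 FPKM and a strand, 41.1% had a peak within 1 kb of the outer end of the RefSeq interval, and of the 8 keratins 0 had. KRT19 and KRT10 had no peak even within 10 kb of the gene, where 80.3% of the 11553 genes had one. That share takes in peaks anywhere inside a gene, long or short. Within 10 kb of the start alone, 59.8% of the 11553 genes had a peak. The nearest peak to the KRT19 start lay 10511 bases away, at chr17:41538819-41539644, with 175 ± 11.1 CPM in DMSO and 162 ± 10.0 CPM with palbociclib (SD, n = 3; log2 -0.11, edgeR adjusted p 0.132). For KRT18 the nearest, at chr12:52945488-52946191, lay 2664 bases from the start and had 65.6 ± 4.43 and 69.6 ± 5.50 CPM (log2 0.09, edgeR adjusted p 0.396). The outer end of KRT8 had its nearest peak 2158 bases away, at chr12:52952018-52952451, with 40.7 ± 5.86 and 38.8 ± 1.77 CPM (log2 -0.08, edgeR adjusted p 0.572). For KRT7 it lay 2629 bases away, at chr12:52235872-52236420, with 40.0 ± 3.03 and 41.4 ± 1.05 CPM (log2 0.05, edgeR adjusted p 0.729).

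KRT15 had 1 peak in its window, at chr17:41506309-41506985 beyond the end of the gene. It had 33.7, 34.0 and 34.3 CPM in DMSO and 37.6, 42.4 and 37.8 CPM with palbociclib. The groups did not overlap, but the log2 change of 0.21 missed the threshold (edgeR adjusted p 0.0583), and it passed with library totals (0.0288) and without palbociclib replicate 3 (0.0449). The 4 peaks in the KRT86 window, which takes in KRT81, did not pass. The one nearest the RefSeq start, at chr12:52278578-52279515, had 52.5 ± 0.270 CPM in DMSO and 47.1 ± 3.19 CPM with palbociclib (SD, n = 3; log2 -0.16, edgeR adjusted p 0.123).

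Across the whole type II cluster, from the first to the last keratin gene on chromosome 12, 3 of 40 peaks were higher and 6 were lower. In the type I cluster on chromosome 17, 3 of 25 were higher and 0 were lower. Over all peaks 5.41% were higher and 6.46% lower, and counts this small are not read further. The number higher in the type II cluster was 1 without any 1 of DMSO replicates 1 to 3 or of palbociclib replicates 1 and 2, and 1 by DESeq2. In the type I cluster it was 1 without DMSO replicate 1 or 2 and by DESeq2, and without palbociclib replicate 2 there were 2 lower peaks. The difference between the clusters was not tested.

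**Figure D4:**
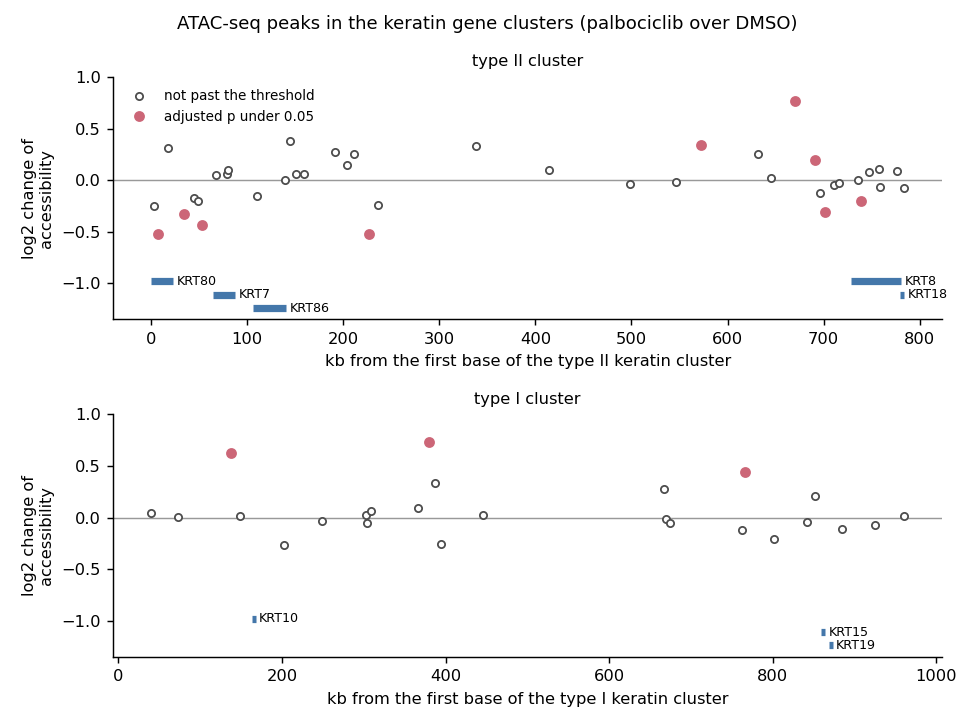
Log2 change of accessibility for every ATAC-seq peak between the first and last keratin gene of each cluster, by distance in kb from the first base of the cluster. Red points had an edgeR adjusted p under 0.05 and blue bars mark the genes described. The called peak at KRT80 lies at -0.52 and the called peak in KRT8 at -0.20, and no called peak within 10 kb of the genes described lies above 0.

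Splicing of the keratins was read from the authors' event tables, in which 46 events belonged to the 8 genes. After filters on reads and on the minor form 12 were tested, in KRT7, KRT10, KRT15, KRT18 and KRT80. None passed by the edgeR test, whose adjusted p values ran from 0.242 to 0.998, where 0.350% of 37445 events were called. At an unadjusted p under 0.05 there were 3 of the 12. The share of all 37445 events at that threshold was not computed, so nothing is read from this count. By the FDR in the authors' deposited tables, 0 of the 46 were under 0.05, the smallest being 0.0939, where 3.82% of the same 37445 events had one. Among the 12 tested events, inclusion differed by at most 0.0870 between group means.

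The smallest p belonged to a retained intron of KRT18, 339 bases long, between the exons at chr12:52950328-52950410 and chr12:52950750-52950906. Its inclusion was 0.0117, 0.0138 and 0.0134 in DMSO and 0.0144, 0.0143 and 0.0152 with palbociclib, on 10818 to 23825 reads per library (edgeR p 0.0122, adjusted p 0.242; the authors' deposited FDR was 0.634). The groups did not overlap, but inclusion was at most 0.0152 in any library.

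The 2 other events with an unadjusted p under 0.05 were singled out after their values were seen. In KRT15, a retained intron of 118 bases between chr17:41516808-41516964 and chr17:41517083-41517165 had an inclusion of 0.381, 0.411 and 0.386 in DMSO and 0.331, 0.337 and 0.284 with palbociclib (edgeR adjusted p 0.403; the authors' deposited FDR was 0.0939). Reads spliced across it numbered 100, 127 and 77 in DMSO and 188, 229 and 256 with palbociclib. In KRT80, the last exon used either of a pair of 3′ splice sites 35 bases apart, and the longer form had an inclusion of 0.554, 0.517 and 0.514 in DMSO and 0.458, 0.420 and 0.446 with palbociclib (edgeR adjusted p 0.589; the authors' deposited FDR was 0.135). The groups did not overlap in either event, and neither difference passed the adjusted threshold at depths of 158 to 484 reads per library.

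**Figure D5:**
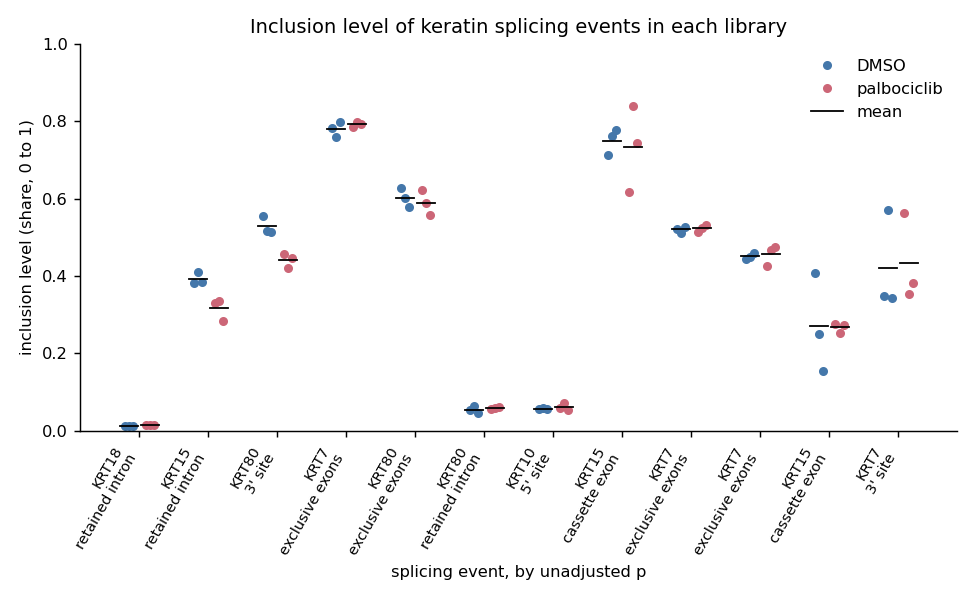
Inclusion level, from 0 to 1, of the 12 tested keratin splicing events in each library, ordered by unadjusted p, with DMSO in blue, palbociclib in red and group means as lines. Only the retained introns of KRT18 and KRT15 and the 3′ splice site of KRT80 have groups that do not overlap. The share of all events with groups apart was not computed. The KRT15 intron is the highest retained one, at 0.393 in DMSO.

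KRT86 had 4 events, and none of them passed the filters on reads and on the minor form. All of them began at an exon at chr12:52249300-52249428, which lies inside the RefSeq interval of KRT7 and under the peak at chr12:52248940-52249539 (42.8 ± 0.704 CPM in DMSO and 46.0 ± 3.39 CPM with palbociclib; SD, n = 3; log2 0.10, edgeR adjusted p 0.365). Reads joining this exon to the next one listed, at chr12:52275821-52275946, numbered 2, 13 and 1 in DMSO and 12, 15 and 13 with palbociclib. Reads joining 2 exons farther along, chr12:52304111-52304171 and chr12:52304932-52305027, numbered 8, 13 and 7 in DMSO and 52, 47 and 54 with palbociclib. Summed over libraries these were 2.50 and 5.46 times as many with palbociclib, while all skipped exon reads together were 1.13 times as many. These sums are of few reads and were not tested.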

How the data were processed

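The authors deposited FPKM per gene and library. Their RNA table gives a mean normalized count, used as a signal value, log2 fold changes with standard errors, and adjusted p-values, per the file headers. The deposited splicing tables (rMATS, junction and exon-body reads) hold other read lists and p-values as FDR. ATAC values are deposited counts per peak, made by featureCounts 2.0.6, per the file headers. The command names no option for read pairs, so they were taken as reads. The submitters' processing notes name fastp 0.23.2, Salmon 1.10.2, STAR 2.7.10b and DESeq2 1.44.0 for RNA, and Bowtie2 2.5.4-6 and MACS3 3.0.3-0 for ATAC-seq, on GRCh38.

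RNA was compared with limma 3.58.1 (R 4.3.3) with an intensity trend on log2(FPKM + 1) over genes with a mean of at least 0.5 FPKM. Peaks were compared with edgeR 4.0.16 (quasi-likelihood, TMM, filterByExpr, which removed 0 peaks). Splicing was compared with edgeR on inclusion and skipping reads, with a term per library, for events averaging at least 20 reads per library, of which the minor form had 5% or more. All p-values were adjusted by Benjamini-Hochberg over all genes, all peaks, or all events of a type. Fits were also run on simulated data. The simulated splicing reads held no spread between libraries beyond sampling, so that run does not show error rates here.

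The genes and lists were chosen with earlier results of these data known. Named were the keratins described, other keratins with a mean of at least 1 FPKM (KRT13, below this, was added after its values were seen), the 3 largest rises and 3 largest falls of the other lists (called, mean of at least 1 FPKM, groups not overlapping), called peaks and the peak nearest each start, the event with the smallest p, and the 2 genes nearest in pattern. Others named in the lists were added after their values were seen. Alternatives were a pseudocount of 0.1 FPKM, other filters, scalings, tools and windows, a replicate block and leaving out each library. KRT81 is not analysed here.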

Additional observations from a re-analysis of the deposited data

How the results depend on the processing

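FPKM carry no depth, and the sizes of change of KRT8, KRT18 and KRT19 depended on scaling. Those of lower genes moved too, as for KRT80, whose log2 change went from 0.61 to 0.69 under quantile normalization. KRT10 turned from -0.038 to 0.0562 on the log2 scale under quantile normalization and to 0.0576 under median centring, and ran from -0.0617 to 0.00037 with 1 library left out. The peak of KRT7 at chr12:52235872-52236420 then ran from -0.00965 to 0.0801. None of these was called.

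Of 31 tested genes that bind or anchor keratins, 15 were higher and 3 lower under quantile normalization, and 17 and 3 under median centring. The cornification and hair cortex genes had 10 of 18 tested higher under each. Over all 15869 genes tested, 4588 were higher and 2856 lower under quantile normalization, and 5468 and 2465 under median centring. The other keratins had 1 higher with a mean FPKM of at least 1. Of the luminal markers 1 was lower with a mean FPKM of at least 1, under quantile normalization and with the replicate block. Peaks at the keratin genes gave 1 lower by DESeq2 and 1 higher with library totals. Within 50 kb, 2 of 44 peaks were higher and 7 were lower. Over all peaks 5.41% were higher and 6.46% lower. Leaving out 1 library gave 1 to 2 other keratins higher, 3 to 6 anchoring genes lower, 1 to 3 other filament genes lower, 0 to 1 cornification genes lower, 0 to 1 luminal markers lower, and 0 to 1 higher and 1 to 2 lower peaks. The cause of these shifts was not tested.

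Replicate numbers are not stated to pair the libraries. Deviations of same-numbered libraries correlated at 0.11, -0.01 and 0.09 for RNA and at 0.01, 0.04 and -0.03 for ATAC-seq, and not every library correlated best with its own number. With the replicate block, 0 keratin splicing events passed, 2 keratin peaks were lower, and BFSP1 was no longer called (log2 -0.29, limma adjusted p 0.0534).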

Other observations

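One read class of KRT8 varied between libraries without following the treatment. Reads crossing from the exon at chr12:52900588-52900683 into the intron of 475 bases before chr12:52901159-52901219 numbered 1612, 666 and 1327 in DMSO and 2905, 2815 and 981 with palbociclib. At the other edge of the same intron they numbered 408, 437 and 317 in DMSO and 685, 593 and 486 with palbociclib. Spliced reads across it numbered 47564, 56039 and 36595 in DMSO and 81488, 83411 and 78939 with palbociclib, so DMSO replicate 2 and palbociclib replicate 3 were low at 1 edge only.

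The splicing tables list KRT15 exons at chr17:41519665-41519872 and chr17:41521685-41521901, beyond the RefSeq interval of the gene. Inclusion of the first was 0.712, 0.761 and 0.776 in DMSO and 0.617, 0.840 and 0.743 with palbociclib, on 153 to 369 reads per library. Most of its inclusion reads lay in the exon body (127 to 294 per library). Its junctions had 0 to 6 and 13 to 45 reads, and 13 to 44 reads skipped it. Another event of this exon, which was not tested, had mean inclusion of 0.919 in DMSO and 0.923 with palbociclib. A KRT15 cassette exon inside the gene, chr17:41517337-41517609, had an inclusion of 0.409, 0.251 and 0.154 in DMSO and 0.275, 0.254 and 0.274 with palbociclib. Its control libraries were spread far wider than its treated ones, and most of its inclusion reads lay in the exon body (65 to 323 per library), with at most 12 across either junction.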
